A study of Arabidopsis thaliana with 12 samples.

Results

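The 2 genes described here are IAA31 (AT3G17600), an auxin-response regulator of the Aux/IAA family, and AT1G01250, a member of the ERF family of transcription factors, in Arabidopsis thaliana plants before and after 1 h of darkness. Each has 1 probe that lists no other gene, and these 2 probes were taken from 692 single-gene probes among 3439 probes on the array. Both were selected on their probe intensities in these samples, with the difference between light and dark already known, so that difference is given as a description, with no test. Total RNA of wild-type plants of the Columbia 0 ecotype was hybridised to a 1-channel expression array. One group was light-adapted plants (6 samples, numbered 1 to 6) and the other was light-adapted plants exposed to darkness for 1 h (6 samples, numbered likewise). No source used here gives the age or organ of the plants, and nothing says that the samples came from separate plants, so the spread between samples may be technical.

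Aux/IAA proteins are short-lived nuclear repressors of auxin signalling. They bind auxin response factors at target promoters and hold them inactive, and auxin triggers their destruction by bringing them to TIR1/AFB receptors of a ubiquitin ligase. Many Aux/IAA genes are themselves switched on by auxin, which closes a feedback loop, and IAA31 belongs to the members whose degradation motif departs from the usual form. ERF proteins bind DNA through a single AP2 domain and take part in responses to ethylene, to stress and in development. No function of AT1G01250 beyond its family is assumed here. In RNA from a mixture of cells, fewer cells that express a gene and less of its RNA per cell cannot be told apart.

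The deposited intensities run from 0 to 100 in each sample. Values were quantile normalised. Samples 1 with 2, 3 with 4 and 5 with 6 of a group were taken as partners by their neighbouring numbers and averaged. Means and SDs therefore rest on 3 averaged replicates per group. The labels do not say that these samples belong together. A background limit was set in each sample from probes that read 0 in its partner, and it was higher in light-adapted samples 3 to 6 (0.0850 to 0.194) than in the other 8 samples (0.0289 to 0.0501). The share of probes above it was 29.8% to 50.5% in those 4 samples and 62.8% to 71.2% elsewhere. Both IAA31 and AT1G01250 were above the limit in 12 of 12 samples. So were the green-tissue genes LHCB1.5, PSBW and PRK, which encode an antenna protein, a photosystem II subunit and a Calvin cycle enzyme. The number of arrays limits the precision.

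IAA31 stood at roughly one level in the light and at a lower one after 1 h of darkness. In light-adapted samples 1 to 6 its normalised intensity was 1.80, 2.23, 1.58, 1.70, 1.59 and 1.86. In dark samples 1 to 6 it was 0.956, 0.932, 0.829, 0.929, 0.852 and 0.923. Light-adapted sample 2 was the highest of all and dark sample 3 the lowest. The groups did not overlap: the lowest light-adapted sample was 1.65-fold above the highest dark one. Such a separation, with the dark samples lower, was seen for 6.51% of all probes and 18.3% of those above the limit in 12 of 12 samples. The mean went from 1.79 ± 0.199 (SD, n = 3) in the light to 0.903 ± 0.0353 in the dark. This is a log2 change of -0.98 (SE 0.10), or 49.3% less signal in the dark. Signal over background was large throughout, from 9.58 to 62.4 times the limit in the light and from 18.4 to 32.4 times in the dark.

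AT1G01250 was also lower in the dark, with more scatter between samples. Its normalised intensity was 1.23, 0.759, 1.03, 1.12, 0.902 and 0.735 in light-adapted samples 1 to 6. It was 0.441, 0.313, 0.578, 0.408, 0.476 and 0.443 in dark samples 1 to 6. The lowest light-adapted sample, number 6, was 1.27-fold above the highest dark one, number 3. So here too the groups did not overlap, by a narrower margin than for IAA31. Such a separation was seen for 6.51% of all probes and 18.3% of those above the limit in 12 of 12 samples. The mean went from 0.963 ± 0.132 (SD, n = 3) for light-adapted plants to 0.443 ± 0.0597 for dark ones. The log2 change was -1.12 (SE 0.16), or 53.9% less signal. Its light-adapted values lay 3.79 to 42.4 times above the limit and its dark values 8.05 to 18.0 times, the lowest of these multiples being that of light-adapted sample 6, where the limit itself was highest.

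**Figure D1:**
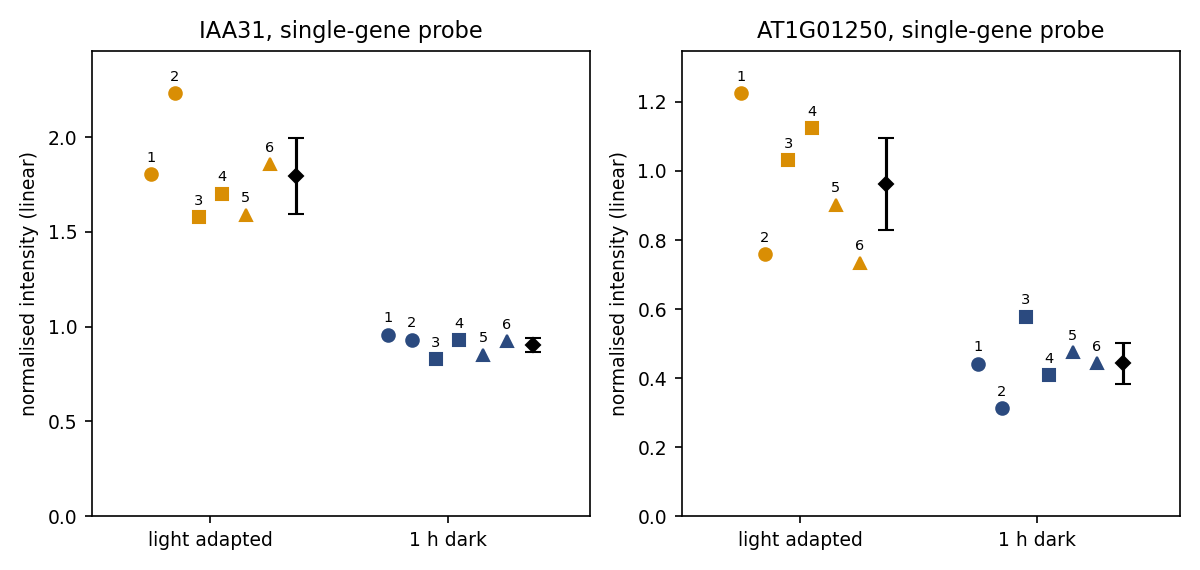
Normalised intensity (linear axis from 0) of IAA31 and AT1G01250 in each of 12 samples, labelled by sample number, with the same marker shape for numbers that were averaged; black diamonds and bars are the mean and SD of 3 averaged replicates. All 6 dark samples of either gene lie below all 6 light-adapted ones, as for 6.51% of all probes and 18.3% of those above the background limit in all 12 samples. The means are 1.79 against 0.903 for IAA31 and 0.963 against 0.443 for AT1G01250.

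Compared sample by sample, the dark sample was below the light-adapted sample of the same number in 6 of 6 comparisons for either gene. Since the groups did not overlap, this had to be so, and only the size of the ratios adds to the description. For IAA31 the light-to-dark ratio was 1.89, 2.40, 1.90, 1.83, 1.87 and 2.01 for numbers 1 to 6. Only number 2 stood away from the others, through its high light-adapted value. For AT1G01250 the ratios were 2.78, 2.43, 1.78, 2.75, 1.90 and 1.66. They spread more widely, and the largest and the smallest differed more than for IAA31. Without any normalisation every ratio was larger. The deposited intensities gave 2.05 to 2.53 (median 2.26) for IAA31 and 2.04 to 3.31 (median 2.58) for AT1G01250. In those values IAA31 ran from 1.49 to 2.21 in the light and from 0.666 to 1.08 in the dark, and AT1G01250 from 0.699 to 1.46 and from 0.254 to 0.629, again with no overlap, as for 7.24% of all probes. The order of samples did depend on scaling: as deposited, light-adapted sample 4 was the highest for both genes, and after normalisation it was sample 2 for IAA31 and sample 1 for AT1G01250.

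**Figure D2:**
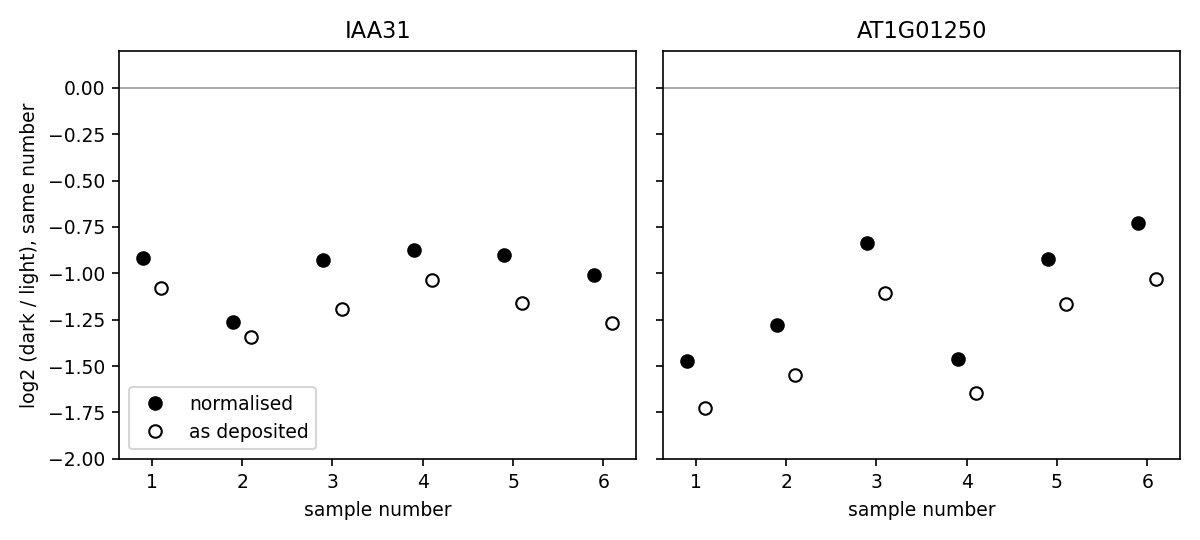
Log2 ratio of the dark to the light-adapted sample with the same number, for IAA31 and AT1G01250, from normalised (filled) and deposited (open) intensities; the grey line marks no difference. All 12 normalised points lie below 0, from -0.87 to -1.26 for IAA31 and from -0.73 to -1.47 for AT1G01250, and each deposited point lies lower still.

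The genes differed in how closely replicates matched. Partner samples of IAA31 differed by 1.03-fold to 1.12-fold in the dark and by 1.08-fold to 1.24-fold in the light. For AT1G01250 the same differences were 1.07-fold to 1.42-fold in the dark and 1.09-fold to 1.62-fold in the light, the last between light-adapted samples 1 and 2. The averaged log2 values of IAA31 had an SD of 0.15 under light and 0.06 after darkness, and those of AT1G01250 one of 0.20 in both groups. The log2 changes of the 2 genes lay 0.14 apart, less than the SE of the AT1G01250 change, and they were not tested against each other. Over the 12 samples their log2 values correlated with Pearson's r = 0.81. With each group's mean removed r was -0.54, so the positive relation lay between the groups and not among samples of one group. Both genes were read on the same 12 arrays, which share scaling and partner pairs, and r is given as a description.

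Differences of this size were common on the array. Over all 3439 probes the log2 changes had a median of 0 and quartiles of -0.55 and 0.54. A change lower than that of IAA31 was seen for 449 probes (13.1%) and one lower than that of AT1G01250 for 356 (10.4%). Light and dark samples did not overlap, with the dark ones lower, for 224 probes or 6.51% of all. Among the 831 probes above the background limit in all 12 samples, as both genes were, this held for 152 or 18.3%. In limma with Benjamini-Hochberg adjustment over all probes, 262 probes (7.62%) passed an adjusted p of 0.05, of which 116 (3.37%) were lower in the dark. When limma was given the number of the averaged pair as a block shared by light and dark, 0 of 3439 probes passed. The lowest adjusted p was then 0.0629, and 797 probes had an unadjusted p under 0.05. Over 12 samples without averaging, 781 passed with the sample number as such a block. With neighbouring numbers of a group as random blocks 584 passed, so the count depended on the replicate model.

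**Figure D3:**
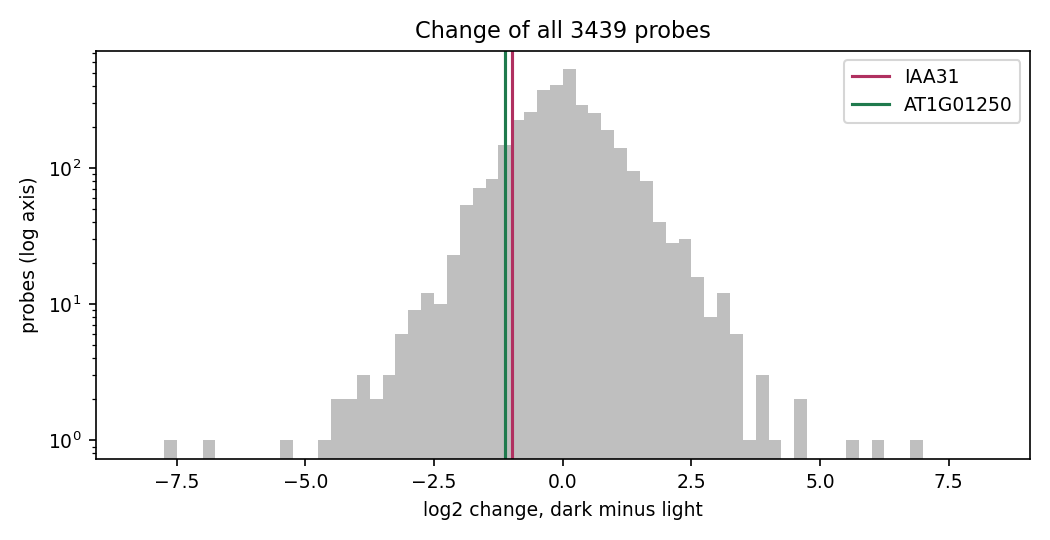
Histogram of log2 changes (dark minus light) of all 3439 probes, with the number of probes on a log axis; vertical lines mark IAA31 at -0.98 and AT1G01250 at -1.12. Both lines fall on the left shoulder of the distribution, with 449 and 356 probes further left.

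Little else from the lists of auxin and ERF genes used here could be read from probes with a single gene. These lists held 255 genes, and 2 had a single-gene probe, IAA31 and AT1G01250 themselves. Matching by name did not pick up AT1G01250, which was added to the ERF list by its family. Other ERF genes may therefore be missing from the list, and how much of that family was measured was not determined. No auxin response factor (0 of 23), receptor or co-repressor (0 of 11), transport gene (0 of 13), synthesis or conjugation gene (0 of 19) or SAUR gene (0 of 80), a class of fast auxin-responsive genes, was measured in this way. IAA31 was the only one of 29 Aux/IAA genes. A further 4 probes list several genes, at least 1 of them from these lists, and their signal cannot be assigned to any one gene.

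A second probe, 751, lists IAA31 together with other Aux/IAA genes, and its change was not determined. It read 0.0537, 0.0717, 0.156, 0.126, 0.125 and 0.122 in light-adapted samples 1 to 6. In dark samples 1 to 6 it read 0.203, 0.164, 0.126, 0.216, 0.140 and 0.107. The groups overlapped, and the mean was higher in the dark, 0.159 ± 0.0318 against 0.109 ± 0.0412 (SD, n = 3). Its log2 change of 0.59 (SE 0.38) did not pass in limma (adjusted p = 0.431). Of its 6 light-adapted readings 4 exceeded the background limit, by at most 1.99 times, and all 6 dark readings did, so its light-adapted level was near background. Whether the 2 probes differ in their response was not tested.

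Probe 1268, which lists 3 genes of which 1 matched the ERF list by name, fell. It read 0.388, 0.408, 0.470, 0.300, 0.434 and 0.364 in light-adapted samples 1 to 6 and 0.149, 0.107, 0.133, 0.0895, 0.0992 and 0.127 in dark samples 1 to 6. All 12 samples were above the limit, and the groups did not overlap, as for 18.3% of the probes above the limit in 12 of 12 samples. The mean went from 0.394 ± 0.00772 to 0.117 ± 0.00901 (SD, n = 3), a drop of 3.37-fold. These SDs are of averaged pairs and leave out gaps between partners, such as 0.470 and 0.300 in light-adapted samples 3 and 4. The drop passed in limma (log2 change -1.75, SE 0.09, adjusted p = 0.00636). It did not pass with the number of the averaged pair as a block shared by light and dark (adjusted p = 0.0629). The remaining 2 probes were above the limit in none of 12 samples. Of these, probe 1438 was listed at 0 in every sample and probe 1698 in 3 of 6 light-adapted and 5 of 6 dark samples, so no fold is given. Of the 4 probes, 1 thus passed, against 7.62% of all probes.

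**Figure D4:**
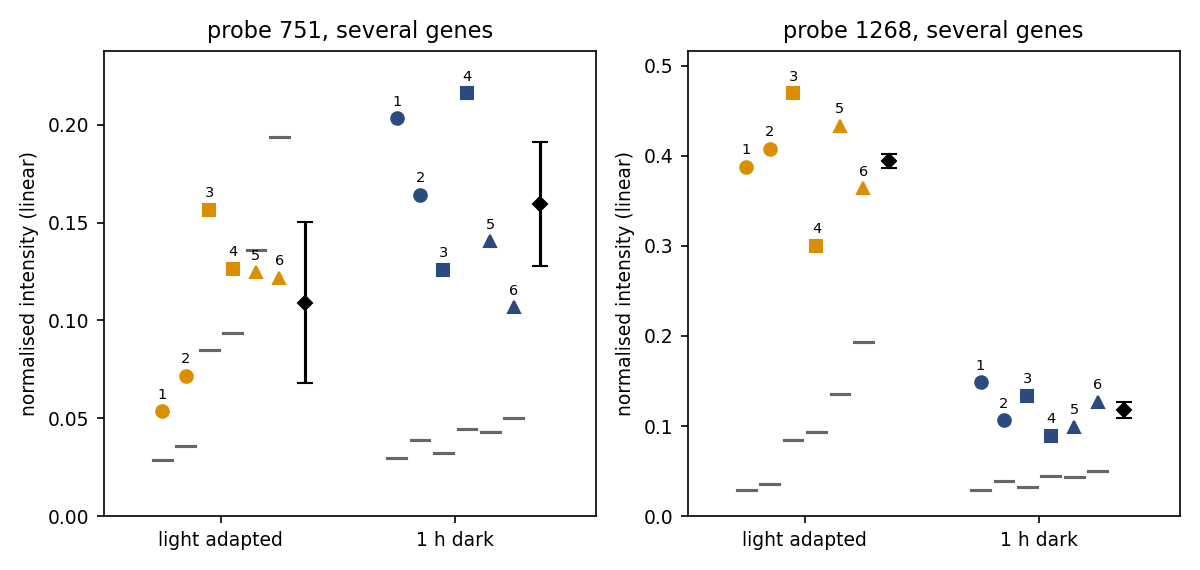
Normalised intensity (linear axis from 0) per sample of probe 751, which lists IAA31 with other genes, and probe 1268, which lists 3 genes, 1 of them in the ERF list; grey ticks are each sample's background limit, and black diamonds and bars are the mean and SD of 3 averaged replicates. Probe 751 overlaps between the groups and sits near the limit in the light, whereas probe 1268 is higher in all 6 light-adapted samples.

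Among 537 other genes matched by name as transcription factors, 1 had a single-gene probe. On the array, 4 probes list several genes with at least 1 of these among them. Such matching missed AT1G01250 and may have missed other transcription factors, so how many were measured was not determined. The gene with a single-gene probe was AT4G03090, also called NDX, a homeobox gene. Its light-adapted mean of 0.0424 ± 0.0112 compared with 0.0104 ± 0.00632 after darkness (SD, n = 3), and it passed narrowly in limma (log2 change -1.34, SE 0.25, adjusted p = 0.0460). Only 2 of 6 light-adapted readings and 0 of 6 dark ones exceeded the limit, so the size of this change was not determined. The call was lost under 20 of 30 alternative settings (adjusted p = 0.0606 to 0.552). Among them were no normalization (adjusted p = 0.133), median scaling (0.174) and the pair number as a block shared by light and dark (0.153). Others were the samples without light-adapted sample 6 (adjusted p = 0.501) and a floor at the 20th percentile, where the log2 change was -0.26 (0.552).

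The single-gene probes most like each gene were ranked by Pearson's r of log2 values over the 12 samples, among 427 others with enough signal. For IAA31 these were AT1G02020 (r = 0.98), AT2G46630 (0.96), AT3G26580 (0.96), AT3G06570 (0.95) and AT5G65220 (0.94). The log2 changes of the last 4 ran from -0.84 to -4.06. AT1G02020 was below the background limit in dark samples 2, 5 and 6, so the size of its change was not determined. With group means removed, r fell to 0.66 for AT3G26580, 0.57 for AT1G02020 and 0.15 or less for the other 3. For AT1G01250 they were AT2G29870 (r = 0.89), AT4G39690 (0.88), AT5G26850 (0.88), AT3G06570 (0.88) and AT5G15280 (0.87), with r of 0.45, 0.33, 0.19, -0.02 and 0.43 once group means were removed. AT3G06570 is on both lists, with 11.7 ± 0.760 under light and 6.51 ± 0.430 after darkness (SD, n = 3). AT1G01250 ranked 31st in likeness to IAA31, and IAA31 ranked 20th in likeness to AT1G01250. All these probes were read on the same arrays, with the same scaling.

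Of the probes whose IDs lie next to or 6 away from those of the 2 genes, 7 are on the array. The sources used here do not state whether IDs follow position on the array, and the part of these probes in the results was not tested. For IAA31, the preceding ID was listed at 0 in all 12 samples, and the following one averaged 0.236 ± 0.0593 under light and 0.280 ± 0.0586 after darkness (SD, n = 3). The ID 6 after IAA31 averaged 0.242 ± 0.334 and 0.0702 ± 0.0535, with light-adapted samples 5 and 6 at 0, and its log2 change of -0.78 had an SE of 1.67, too wide to give a direction. For AT1G01250 the preceding ID had 0.0203 ± 0.0194 and 0.0312 ± 0.0318 and the following one 0.0515 ± 0.0246 and 0.0771 ± 0.0261. The ID 6 after AT1G01250 had 0.117 ± 0.0421 and 0.182 ± 0.0282, and the ID 6 before it was above the limit in no sample. In limma 0 of 7 passed (0 at an unadjusted p under 0.05, lowest adjusted p = 0.306), with wide errors for several.

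Under 30 alternative settings the values moved as follows, given as a description, since the choice of the genes fixed the direction. In 7 of the 30 (both floors, the replicate models and the trended spread estimate) the estimate cannot move. In the other 23 the log2 change of IAA31 ran from -0.81 with median scaling to -1.18 without light-adapted samples 3 to 6 or without normalisation. That of AT1G01250 ran from -0.99 without dark samples 1 and 2 to -1.37 without normalisation. Leaving out any single sample gave -0.93 to -1.03 for IAA31 and -1.01 to -1.24 for AT1G01250. The floor used for dim probes did not touch either value, since both genes were far above it.

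**Figure D5:**
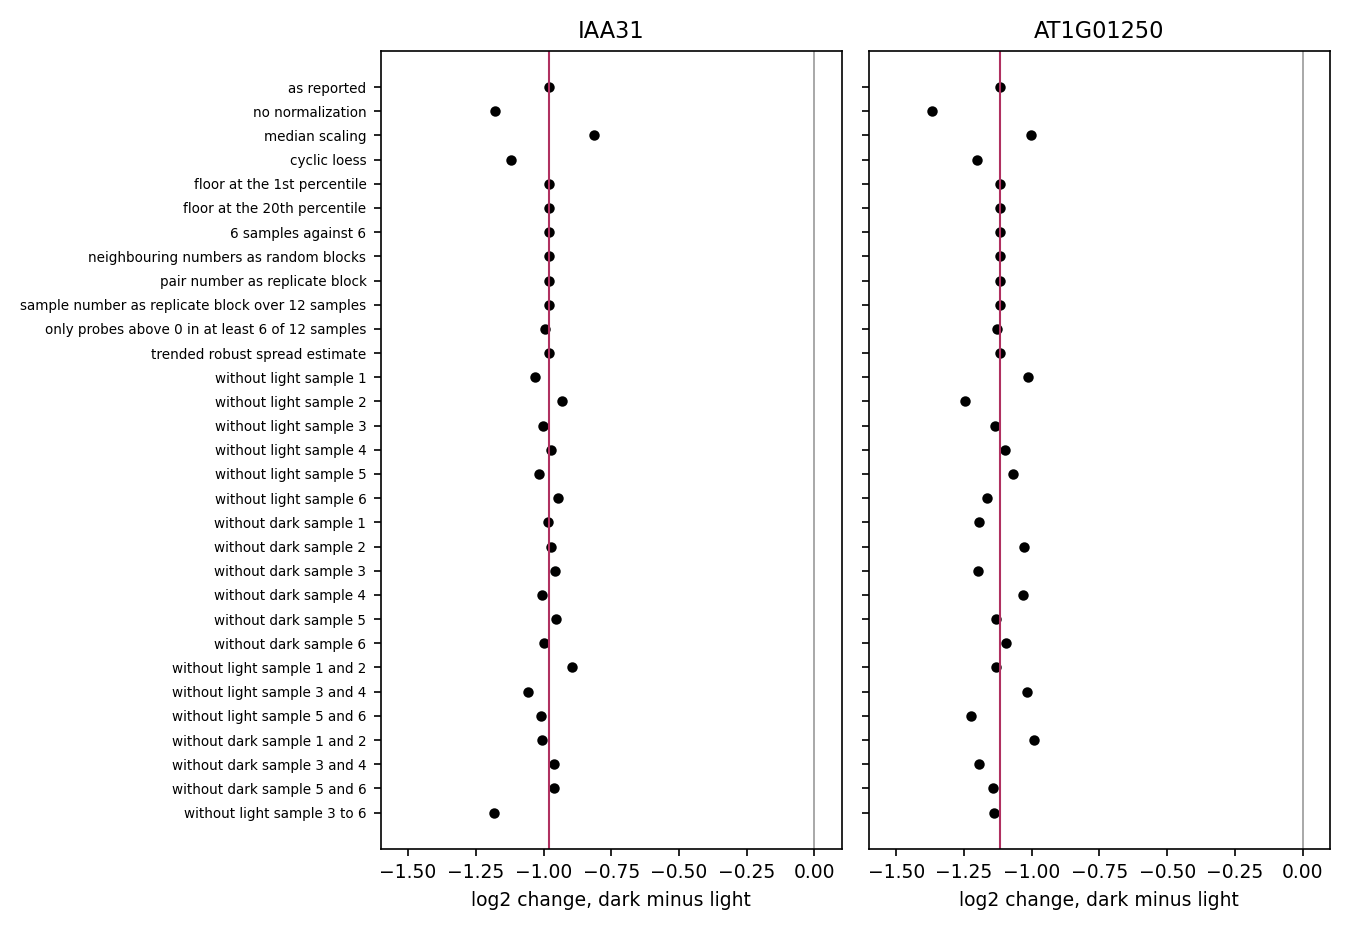
Log2 change (dark minus light) of IAA31 and AT1G01250 as reported (red line and first point) and under each of 30 alternative settings, 1 per line; the grey line marks no difference. All points lie below 0, between -0.81 and -1.18 for IAA31 and between -0.99 and -1.37 for AT1G01250, and leaving out normalization moves both further than leaving out any 1 sample does.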

How the data were processed

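The authors deposited a table of linear intensities for 12 samples (6 light, 6 dark), each column running from 0 to 100 by its values. No source used here states the scanner, background correction or normalization behind them. Arrays were quantile normalised, values under 0.0116 (5th percentile of the positive deposited values) were set to it, and log2 was taken. Partner samples (neighbouring numbers) were averaged. A limma 3.58.1 model in R 4.3.3 (lmFit, eBayes) gave dark minus light for 3439 probes, with Benjamini-Hochberg adjustment. The fit was also run on simulated data with independent normal noise of the same SD for all probes. That simulation held no readings at 0 and no pairing between groups, so it does not show how calls behave with them. Means and SDs are of normalised linear values. The background limit of a sample is the value that 95% of the probes reading 0 in its partner stay under.

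The members, gene lists, averaging and limits were chosen with earlier results of these data known. Same-numbered samples of the groups deviated weakly together (correlations 0.132 to 0.219 for 6 numbers, 0.121 to 0.208 for 3 averaged pairs). They may be paired, but labels say nothing of it. Samples with different numbers were not compared in this way, so these correlations cannot settle it. No block enters the fit described above, so its SEs and adjusted p-values leave any such pairing out. In limma with the number of the averaged pair as a block shared by light and dark, 0 of 3439 probes passed (lowest adjusted p = 0.0629). With the sample number as a block over 12 samples 781 did.

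Named genes are IAA31, AT1G01250, list genes with a single-gene probe, ID neighbours, and for each of the 2 genes the 5 most correlated single-gene probes with a mean above the lower quartile and above the limit in at least 6 samples. Probe names came from the platform annotation, matched by gene ID to RefSeq's genes for TAIR10.1 (690 of 692 matched). Coordinates and sequences were not used here. Alternatives changed the normalization, floor, filter, replicate model and samples. Figures were drawn with matplotlib 3.10.9.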

Additional observations from a re-analysis of the deposited data

Results flagged for a closer look

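No sample of IAA31 or AT1G01250 stood apart from its group by Dixon's test at 95%, which was run on the 6 samples of each group and by chance marks about 1 in 20 groups. It marked 4 values of other probes. Where the other 5 samples read 0, any reading above 0 is marked, so the rate of 1 in 20 does not hold there. The number of groups tested was not counted, so the 4 cannot be set against that rate. Dark sample 2 of probe 1698 read 0.00145 where the other 5 dark samples read 0, and it was below the background limit. Dark sample 5 of the probe 6 IDs before AT1G01250 read 0.0184 against 0 in the others, also below the limit. Dark sample 6 of the probe just after AT1G01250 read 0.132, with the next highest at 0.0824. Dark sample 3 of AT5G15280 read 0.0834, with the next highest at 0.0520.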

How the results depend on the processing

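Of 30 settings, 7 cannot move the estimates of IAA31 and AT1G01250. Of the other 23, 19 moved IAA31 by less than 1 SD of its averaged log2 values (0.12), and 4 gave -1.18 without normalization, -0.81 with median scaling, -1.12 with cyclic loess and -1.18 without light-adapted samples 3 to 6, the last chosen after seeing the data. AT1G01250 moved by more than its SD (0.20) in 1 of them, -1.37 without normalization, where the median of all probes was -0.08. The cause was not tested. Leaving out samples gave -0.89 to -1.18 for IAA31 and -0.99 to -1.24 for AT1G01250.

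The 262 probes called across the array became 155 without normalization (65.2% of them lower in the dark, against 44.3% as reported, 31.1% with median scaling and 51.5% with cyclic loess), 814 with 6 samples against 6, 584 with neighbouring numbers as random blocks, 781 where the sample number was a replicate block and 0 where the averaged pair was one. Leaving out samples gave 13 to 274: 13, 94 and 64 without dark samples 1 and 2, 3 and 4, or 5 and 6. The cause was not tested. Of the 4 probes listing several genes, 1 was called as reported, 0 with the pair block, and 1 to 2 with samples left out, 2 being reached without light-adapted samples 5 and 6 or 3 to 6. The second call there was probe 1698, which was above background in no sample. Probe 1268 lost its call only with the pair block. Probe 751 passed in no setting, with log2 changes of 0.23 to 1.22.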
